A study of Mus musculus with 7 samples.

Results

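The genes described are 8 transcription factors that promote or hold back the osteoblast lineage, namely Sp7, Runx2, Dlx3, Dlx5, Dlx6, Msx2, Atf4 and Twist1. They were found by matching these symbols to the platform annotation of the array, which named 10 probe sets for 7 of the 8 genes, among 20380 probe sets and 12393 genes that carry a single symbol. Runx2 has no probe set named in that annotation and was not analysed here. A gene with several probe sets is represented by the one with the brightest mean over all arrays, and its other probe sets are given beside it. The cells came from the bone marrow stroma of OsxCre-mCherry;OcnCre-Topaz double transgenic mice, 4 to 6 weeks old, and were sorted by flow cytometry 6 days after tamoxifen. The Ocn+ group (Topaz, green) has 3 arrays and the Osx+ group (mCherry, red) has 4. Every mouse of both groups carried both reporters and received tamoxifen, so a group is defined by colour alone, through the osteocalcin promoter for Ocn+ cells and the osterix promoter for Osx+ cells. The labels do not say whether an array holds cells of a single animal or of a pool, and p-values can only reflect how these samples scatter, which might be technical.

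Osteoblasts arise from stromal progenitors in steps set by a small network of transcription factors. Runx2 starts the programme, and osterix, the zinc finger protein made from Sp7, acts after it and is needed for bone formation in mice. The distal-less homeodomain proteins Dlx3, Dlx5 and Dlx6 activate bone genes, and Msx2, a related homeodomain protein, mostly represses through the same kind of site. Atf4 is a basic leucine zipper protein that serves amino acid supply and the late, matrix-producing osteoblast, and Twist1 is a basic helix-loop-helix protein that holds back Runx2 in early cells.

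Values are log2 signals as deposited, and differences are Ocn+ minus Osx+ in log2 units from limma across 12393 genes, with Benjamini-Hochberg adjusted p and 95% confidence intervals. Median log2 signal per array lay between 8.25 and 8.35. The osteolineage label was checked on the 10 of 14 listed marker genes that were measured. Neither osteocalcin gene of the list (Bglap, Bglap2) was among them. Col1a1 averaged 14.95 ± 0.03 over the 3 Ocn+ arrays and 15.00 ± 0.05 over the 4 Osx+ arrays (SD). Alpl, the alkaline phosphatase of bone-forming cells, averaged 13.81 ± 0.07 over the Ocn+ and 13.69 ± 0.06 over the Osx+ arrays. Phex, of the same list, was less steady, at 10.99 ± 0.91 over the Ocn+ and 10.28 ± 1.80 over the Osx+ arrays. The mean of the 10 markers stood between 12.46 and 12.99 on the Ocn+ arrays and between 12.00 and 13.00 on the Osx+ arrays. Of the 10, 0 had a limma p under 0.05 before adjustment, against 5.31% of all genes. A count of 0 in 10 is near that share and does not show that the groups are alike. The arrays also fell into a pair of classes by the signal of Xist, the RNA that coats the inactive X chromosome of female cells. It was 12.33 to 12.96 on 4 arrays (Ocn+ replicates 2 and 3, Osx+ replicates 2 and 4) and 4.87 to 5.79 on 3 arrays (Ocn+ replicate 1, Osx+ replicates 1 and 3). The signal of the Y-linked gene Eif2s3y was 4.03 on Osx+ replicate 4 and 8.03 to 10.41 on the other arrays. This class is defined from the data and is not a group of the study, but it cuts across the sort, and 34.3% of all genes did not overlap between its 4 and 3 arrays, against 6.9% between the 3 Ocn+ and the 4 Osx+ arrays. What the class stands for beyond the Xist signal was not tested.

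Of the 7 measured factors, 0 passed in limma at an adjusted p of 0.05, where 0% of all 12393 genes did. Dlx3 had the largest difference of the 7 and was higher on average in Ocn+ cells by both of its probe sets. Dlx5, Dlx6 and Sp7 had smaller positive differences, Atf4 one near 0, and Msx2 and Twist1 negative ones, each with an interval that holds 0. Of the 7, 1 had a limma p under 0.05 before adjustment, against 5.31% of all genes, and the arrays of the groups did not overlap for 0 of 7, against 6.9% (4.37% with all Ocn+ arrays above). The median difference was 0.18 over the 7 factors and 0.02 over all genes, and 5 of 7 differences were above 0, as were 52.7% of those of all genes. A share of 1 in 7 rests on a single gene, so it cannot be set apart from the background. With 3 arrays against 4, the smallest p that an exact 2-sided permutation of one gene can give is 0.0571.

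**Figure D1:**
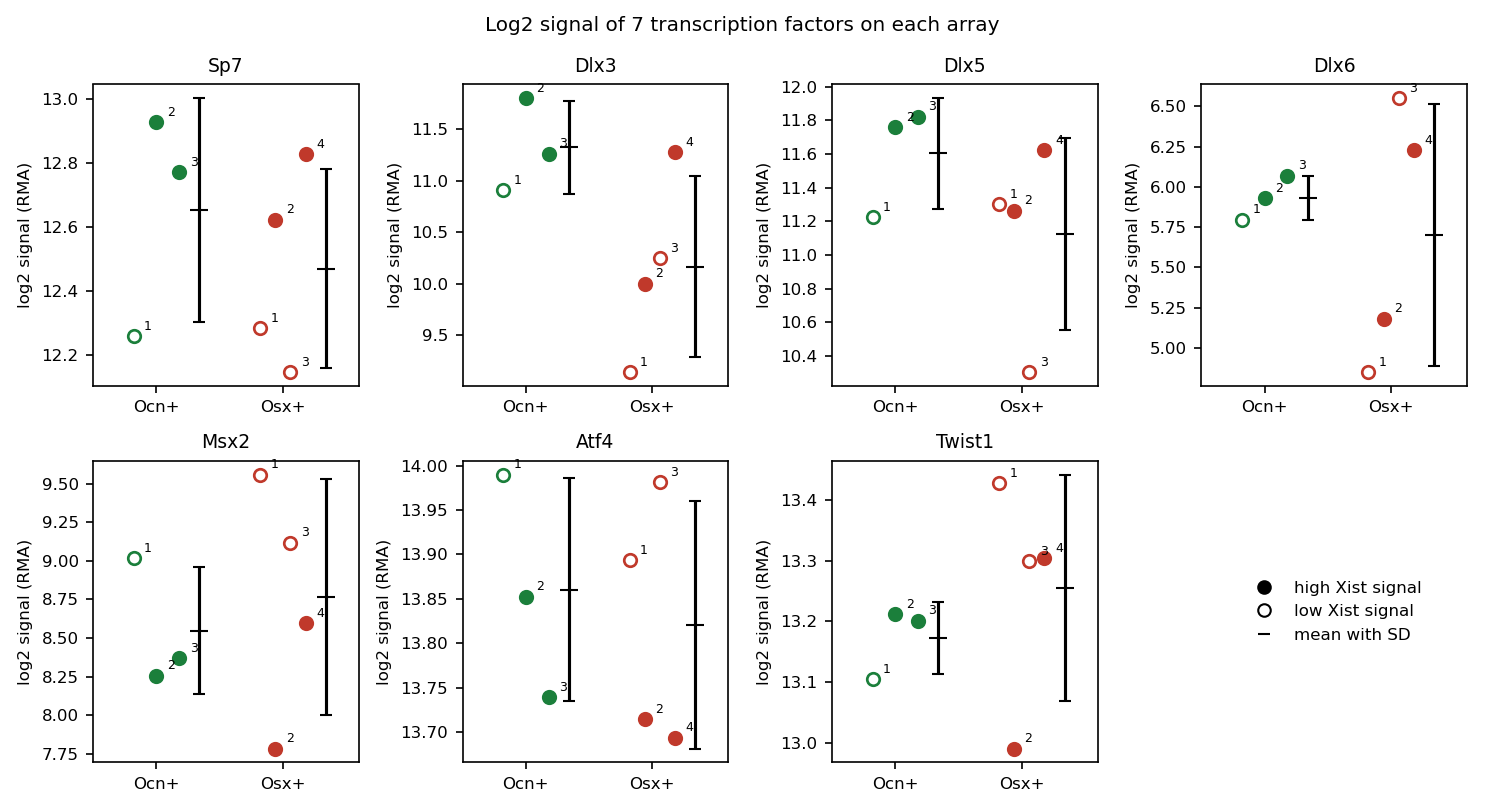
Log2 signal of the 7 measured factors on each array, with Ocn+ arrays left and Osx+ arrays right, replicate numbers beside the points, filled points for high and open points for low Xist signal, and the mean with SD. Dlx3 lies at 10.91 to 11.80 in Ocn+ cells and at 9.14 to 11.28 in Osx+ cells, and the filled and open points separate for Sp7, Msx2 and Atf4.

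Sp7 encodes osterix, whose promoter marked the Osx+ cells. Its log2 signal was 12.26, 12.93 and 12.77 on the Ocn+ arrays, and 12.28, 12.62, 12.15 and 12.83 on the Osx+ arrays. The groups overlapped over nearly their whole range, and the highest array of all was an Ocn+ one. The interval of the difference of 0.18 ran from -0.40 to 0.76 (limma adjusted p = 0.999), so differences of these sizes in either direction could not be told from 0. Within each group the arrays with high Xist signal were the brighter ones, at 12.93 and 12.77 in Ocn+ cells and 12.62 and 12.83 in Osx+ cells, and those with low Xist signal were at 12.26 in Ocn+ cells and at 12.28 and 12.15 in Osx+ cells. With the Xist class as a term in limma the Sp7 difference was 0.09 (SE 0.12, adjusted p = 0.753).

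Dlx3 acts in the osteoblast from the start of matrix formation and is also a factor of skin, hair and tooth. Its brighter probe set read 10.91, 11.80 and 11.26 on the Ocn+ arrays, and 9.14, 10.00, 10.25 and 11.28 on the Osx+ arrays. The groups overlapped because Osx+ replicate 4 stood with the Ocn+ arrays, while the other Osx+ arrays all lay below the lowest Ocn+ one. Dlx3 averaged 11.32 ± 0.45 over the 3 Ocn+ arrays and 10.17 ± 0.88 over the 4 Osx+ arrays (SD), which is 2.23-fold brighter in Ocn+ cells. The interval of the difference of 1.16 ran from 0.01 to 2.31 (limma adjusted p = 0.938, with an unadjusted limma p of 0.0485).

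The other Dlx3 probe set, which was dimmer, read 7.08, 7.39 and 7.10 on the Ocn+ arrays, and 6.31, 5.80, 6.19 and 6.83 on the Osx+ arrays. On this probe set the groups did not overlap, as was the case for 6.62% of the 20380 probe sets. Its difference of 0.91 had an interval from 0.30 to 1.51 and a limma p of 0.00924 before and 0.853 after adjustment over all probe sets. Its Osx+ values of 5.80 to 6.83 lay around 6.03, the 25th percentile of all genes, so they may lie near background. The direction for Dlx3 was shared by both probe sets, and Osx+ replicate 4 was the brightest array of its group on each. Both read the same 7 arrays, so this is not a second set of samples. The Dlx3 difference was 1.02 (SE 0.41, limma adjusted p = 0.298) with the Xist class as a term. It was 0.90 among the high-Xist arrays and 1.22 among the low-Xist arrays, where it rests on a single Ocn+ array. With the replicate number as a block it was 1.53 (limma adjusted p = 0.442), a fit in which Osx+ replicate 4 has no partner and does not enter the estimate. Without Osx+ replicate 1, the dimmest array, it was 0.82 (limma adjusted p = 0.659).

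Dlx5 and Dlx6 are neighbours on chromosome 6 and act together in the skeleton and the jaw. Dlx5 read 11.23, 11.76 and 11.82 on the Ocn+ arrays, and 11.30, 11.26, 10.30 and 11.62 on the Osx+ arrays. Osx+ replicate 3 was the low array, and the other Osx+ arrays fell inside the range of the Ocn+ arrays. The difference of 0.48 had an interval from -0.31 to 1.27 (limma adjusted p = 0.999). Dlx6 read 5.80, 5.93 and 6.07 on the Ocn+ arrays, and 4.85, 5.18, 6.55 and 6.23 on the Osx+ arrays. The Ocn+ arrays lay close together between a low pair and a high pair of Osx+ arrays, and the difference of 0.23 had an interval from -0.77 to 1.23 (limma adjusted p = 0.999). On Osx+ replicate 3 the neighbours stood on opposite sides of their own means, Dlx5 by -1.02 and Dlx6 by 0.75. Dlx6 was the one factor of the 7 with a mean signal under the 25th percentile of all genes, a log2 signal of 6.03, and no detection calls were used here, so its values may lie near background.

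Msx2 is the repressor among the homeodomain factors measured and is held to be most active in early, dividing osteogenic cells. It read 9.02, 8.26 and 8.37 on the Ocn+ arrays, and 9.56, 7.78, 9.12 and 8.60 on the Osx+ arrays. The Osx+ arrays spread on both sides of the Ocn+ ones, and the difference of -0.22 had an interval from -1.23 to 0.80 (limma adjusted p = 0.999). The order of the arrays followed the Xist class in the direction opposite to Sp7, since the 4 high-Xist arrays averaged 8.25 and the 3 low-Xist arrays 9.23, with no overlap. Among the high-Xist arrays the Ocn+ minus Osx+ difference was 0.12, and among the low-Xist arrays -0.32.

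The promoter window of Msx2 is printed because it is the one of the 4 factor promoters at hand (Msx2, Atf4, Twist1 and Runx2) that holds a homeodomain core. The search covered both strands for the letters TAATTA and TAATTG, cores that Msx and Dlx proteins are known to prefer. The window is chr13:53472731-53473030 on the minus strand of GRCm38.p6, from RefSeq, 250 bases before to 50 bases after the annotated start, and capitals mark the match, which begins 187 bases before the start. Of all 32851 promoter windows 5.29% hold TAATTA and 8.0% hold TAATTG. A match is a description of the letters and not a bound site.
Msx2: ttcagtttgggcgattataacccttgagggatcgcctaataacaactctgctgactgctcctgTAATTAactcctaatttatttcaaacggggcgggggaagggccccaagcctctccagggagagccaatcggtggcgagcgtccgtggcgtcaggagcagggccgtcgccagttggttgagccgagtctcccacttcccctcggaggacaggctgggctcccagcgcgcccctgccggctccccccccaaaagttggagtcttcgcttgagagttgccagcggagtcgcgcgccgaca

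Atf4 is controlled to a large part at translation in stressed cells, which a transcript array does not see. Its brightest probe set read 13.99, 13.85 and 13.74 on the Ocn+ arrays, and 13.89, 13.71, 13.98 and 13.69 on the Osx+ arrays. All arrays lay within 0.30 log2 units and the groups overlapped fully. The difference of 0.04 had an interval from -0.33 to 0.41 (limma adjusted p = 0.999), so a change of more than 0.41 log2 units in either direction lies outside it. A second probe set read 11.43, 11.79 and 11.44 on the Ocn+ arrays, and 11.78, 11.61, 11.95 and 11.21 on the Osx+ arrays. The third, near the low end of the scale, read 5.29, 5.48 and 5.57 on the Ocn+ arrays, and 5.89, 5.30, 5.66 and 5.23 on the Osx+ arrays. Both gave differences below 0 (-0.09 and -0.07), so the sign for Atf4 depends on the probe set.

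Twist1 is the early brake of the lineage and is also abundant in mesenchymal stroma. It read 13.11, 13.21 and 13.20 on the Ocn+ arrays, and 13.43, 12.99, 13.30 and 13.30 on the Osx+ arrays. The Ocn+ arrays lay between the lowest and the other Osx+ arrays, and the groups overlapped. The difference of -0.08 had an interval from -0.46 to 0.30 (limma adjusted p = 0.999). Among the high-Xist arrays it was 0.06 and among the low-Xist arrays -0.26.

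**Figure D2:**
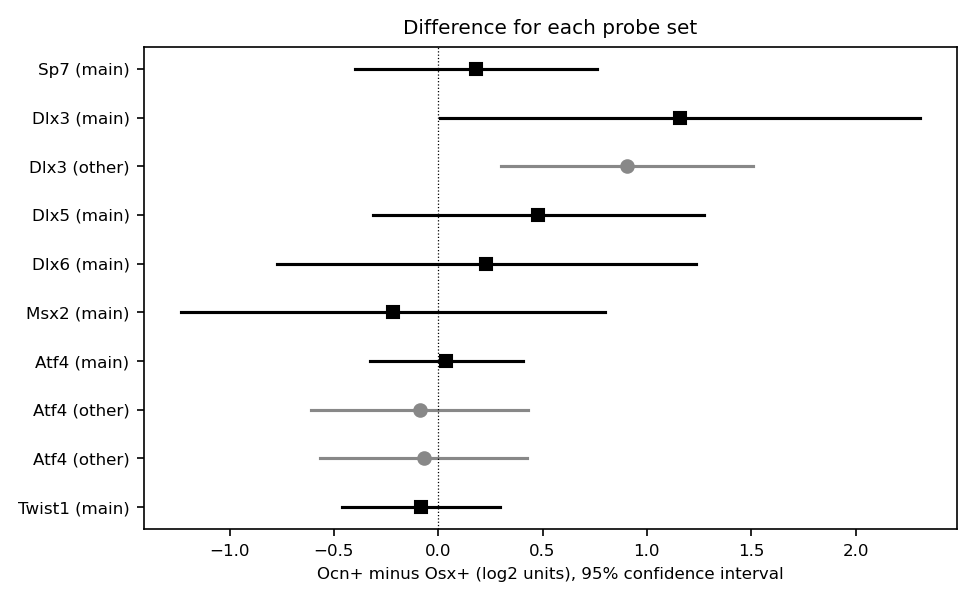
Ocn+ minus Osx+ difference in log2 units with its 95% confidence interval for each of the 10 probe sets, squares for the brightest probe set of a gene and circles for the others. The 2 Dlx3 intervals, 0.01 to 2.31 and 0.30 to 1.51, lie above 0, and the other 8 hold 0.

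The factors differed in how much they varied between arrays. Over all 7 arrays the SD of Dlx3 was 0.92, above that of 91.5% of genes, while the SDs of Atf4 (0.12) and Twist1 (0.14) were above those of 5.30% and 7.84%. Sp7 (0.31) and Dlx5 (0.51) lay nearer to the median gene (0.38). The spread followed the Xist class for 3 of the 7 factors, whose 4 high-Xist and 3 low-Xist arrays did not overlap, against 34.3% of all genes. Sp7 averaged 12.79 on the high-Xist and 12.23 on the low-Xist arrays, and Atf4 averaged 13.75 on the high-Xist and 13.95 on the low-Xist arrays. For Dlx5 the high-Xist mean was 11.62 and the low-Xist mean 10.94, with overlap, and for Dlx3 11.09 and 10.10, also with overlap. A count of 3 in 7 is close to that background, and nothing particular to these factors is read from it.

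**Figure D3:**
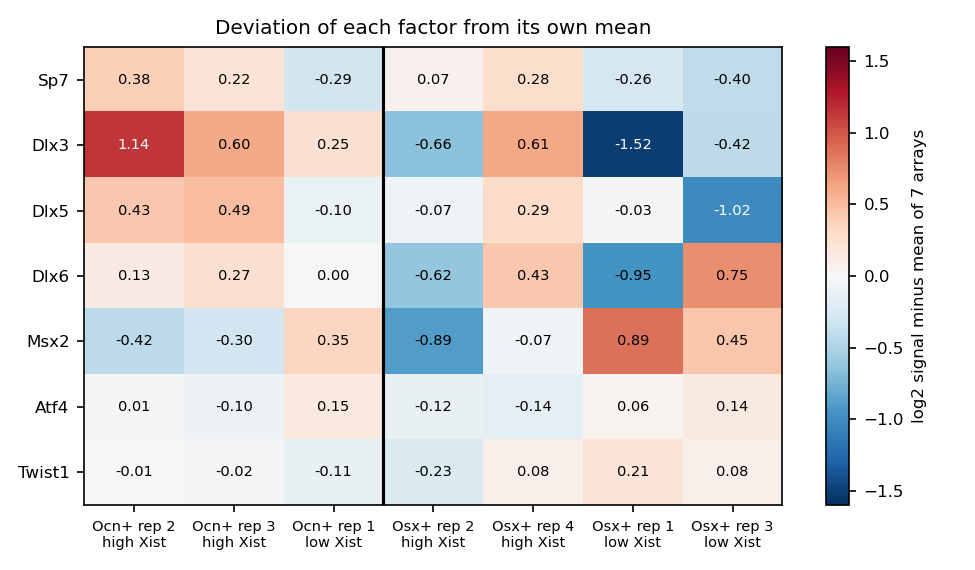
Deviation of each factor from its own mean over the 7 arrays, in log2 units (red above, blue below), with the 3 Ocn+ arrays left of the line and the 4 Osx+ arrays right of it, and high-Xist before low-Xist arrays within a group. Dlx3 is 1.14 above its mean on Ocn+ replicate 2 and 1.52 below it on Osx+ replicate 1 (-1.52), while Atf4 stays between -0.14 and 0.15.

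Likeness of pattern was measured as the root mean square difference between centred log2 values over the 7 arrays, computed for all genes other than the 7 factors. The nearest genes to Sp7 were Lsm14b (0.07 log2 units) and Prcp (0.07), and the nearest to Dlx3 were Sall2 (0.23) and Gprc5c (0.24). Lsm14b and Prcp, like Sp7, did not overlap between high-Xist and low-Xist arrays, as was the case for 34.3% of all genes. Their likeness is thus not particular to Sp7. Among the factors themselves Sp7 and Dlx5 differed by 0.29, whereas Dlx5 and Dlx6 differed by 0.80 and Dlx3 and Msx2, the farthest pair, by 1.21. Small values come readily to genes of small spread, so the nearest pair, Atf4 and Twist1 at 0.16, are also the factors that varied least.

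Among the partners and repressors of these factors, Foxc2 and Hey1 had the smallest p-values, both with higher signal in Ocn+ cells. Of 45 genes listed, 41 were measured and 0 passed at an adjusted p of 0.05 in limma. At a limma p under 0.05 before adjustment 2 were higher in Ocn+ cells and 0 lower, against 3.48% and 1.83% of all genes. The median difference was 0.28, against 0.02 over all genes, with 28 above 0 and 13 below. With the Xist class as a term 10 were higher and 3 lower at an unadjusted limma p under 0.05, against 16% of all genes in that fit, and 0 passed after adjustment. Foxc2, a forkhead factor of mesenchyme and vessels, read 11.11, 11.83 and 11.51 on the Ocn+ arrays, and 10.58, 11.06, 11.01 and 10.71 on the Osx+ arrays, a difference of 0.65 (SE 0.23, limma adjusted p = 0.888). Its groups did not overlap, though Ocn+ replicate 1 and Osx+ replicate 2 were nearly level.

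Hey1, a Notch target that can repress Runx2, averaged 11.59 ± 0.49 over the 3 Ocn+ arrays and 10.74 ± 0.41 over the 4 Osx+ arrays (SD), with a difference of 0.84 (SE 0.31, limma adjusted p = 0.911). Id3, an inhibitor of basic helix-loop-helix proteins, differed by 0.58 (SE 0.27) and the histone deacetylase Hdac7 by 0.77 (SE 0.38). The mean of 19 endothelial markers was 9.56 to 9.86 on the Ocn+ arrays and 6.39 to 9.14 on the Osx+ arrays, and all 19 differences were above 0. Of the 19, 12 were higher in Ocn+ cells at an unadjusted limma p under 0.05, against 3.48% of all genes. After adjustment 0 of 19 passed in limma (smallest adjusted p = 0.556). Among the Osx+ arrays, replicate 3 had the highest endothelial mean (9.14) and the most Id3 (13.51) and Hdac7 (9.22). Foxc2 was instead highest in Osx+ cells on replicate 2 (11.06), where the endothelial mean was lowest (6.39), and Hey1 on replicate 4 (11.24), where it was 7.02. The part of endothelial cells in the Foxc2, Hey1, Id3 and Hdac7 values was not tested.

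Bone genes known as targets of Runx2, osterix or the Dlx proteins included Mepe and Dkk1, with higher signal in Ocn+ cells, and Postn, with lower signal. Of 36 listed, 28 were measured and 0 passed at an adjusted p of 0.05 in limma. Before adjustment 2 were higher (3.48% of all genes) and 1 was lower (1.83% of all genes) in Ocn+ cells at a limma p under 0.05. The median difference was 0.04, with 16 above 0 and 12 below. At the same unadjusted limma threshold 6 were higher and 1 lower under the replicate block, against 6.68% of all genes, and 4 were higher and 1 lower without Osx+ replicate 3, against 7.1%. Other fits gave fewer. Without Ocn+ replicate 2 there were 0 higher and 1 lower (3.17% of all genes), and the same without Ocn+ replicate 3 (3.18%). Without Osx+ replicate 1 there were 0 higher and 2 lower (7.88%). With array weights 5 were higher and 1 lower, against 17.8%. After adjustment 0 passed in any of these fits. Mepe, a phosphoglycoprotein of osteocytes, read 10.35, 10.68 and 11.44 on the Ocn+ arrays, and 5.52, 7.55, 10.17 and 9.59 on the Osx+ arrays. The groups did not overlap, but Osx+ replicate 3 came close to the lowest Ocn+ array, and the difference of 2.61 had an interval from 0.08 to 5.15 (limma adjusted p = 0.935).

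Dkk1, a secreted Wnt inhibitor, read 10.22, 10.26 and 9.99 on the Ocn+ arrays, and 8.78, 8.01, 9.93 and 9.39 on the Osx+ arrays. These groups were also apart by a narrow margin, set by Osx+ replicate 3, and the difference was 1.13 (SE 0.43, limma adjusted p = 0.935). Postn, the matricellular protein of periosteum and early osteogenic cells, went the other way, at 12.21, 12.92 and 13.20 on the Ocn+ arrays, and 13.45, 14.07, 13.79 and 13.95 on the Osx+ arrays. All Ocn+ arrays lay below all Osx+ arrays, with a difference of -1.04 (SE 0.28, limma adjusted p = 0.731). Ank, a transporter that raises pyrophosphate outside the cell, differed by 0.60 (SE 0.29), and its groups overlapped.

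**Figure D4:**
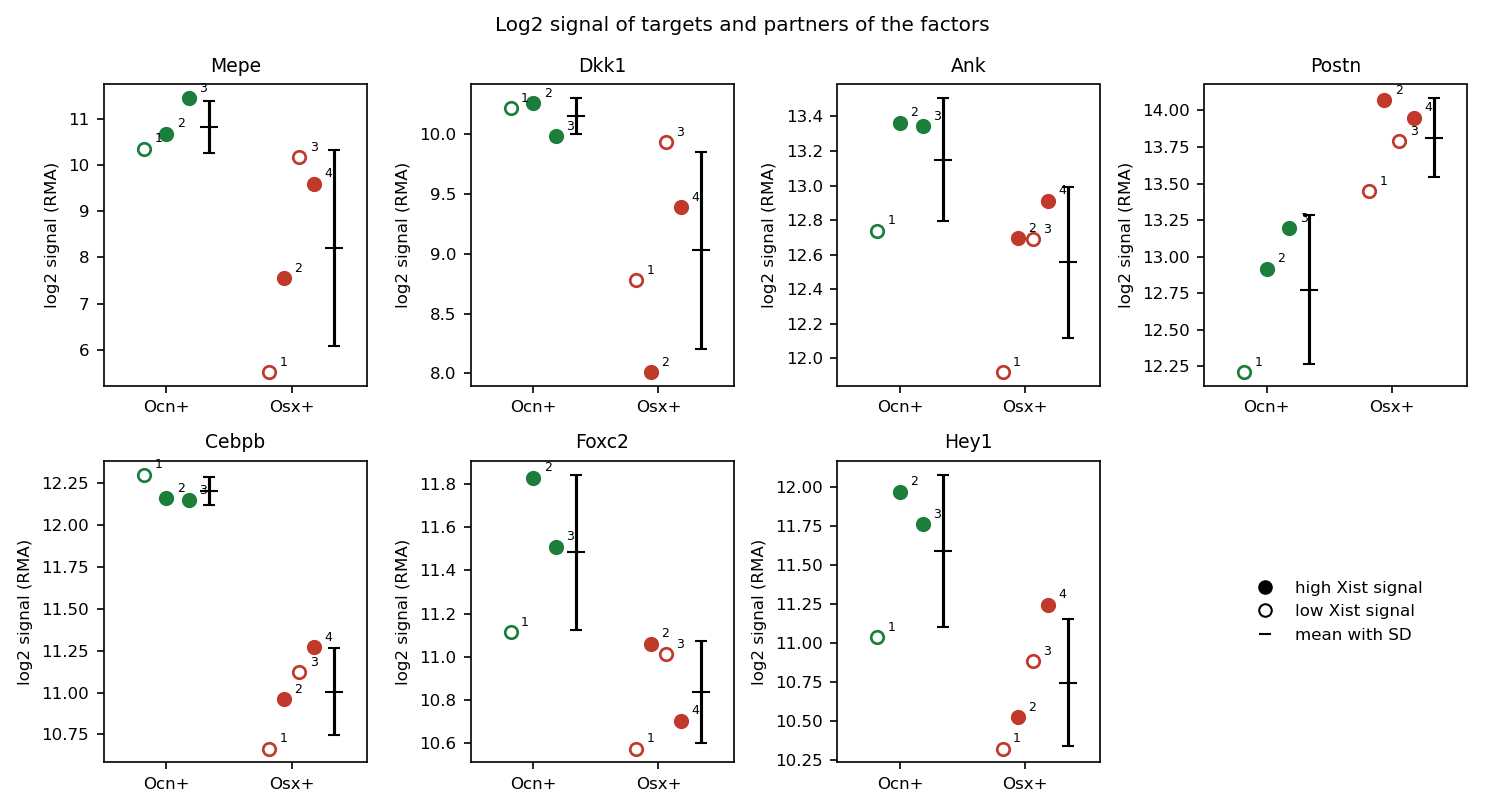
Log2 signal per array of the targets Mepe, Dkk1, Ank and Postn, the Atf4-linked gene Cebpb and the partners Foxc2 and Hey1, with Ocn+ arrays left and Osx+ arrays right, filled points for high and open points for low Xist signal, and the mean with SD. Mepe, Dkk1, Cebpb and Foxc2 lie higher on all Ocn+ arrays than on any Osx+ array, Postn lies lower, and Ank and Hey1 overlap.

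The promoter windows of Mepe, Dkk1 and Postn are shown since these are the target genes whose arrays did not overlap. They are 3 of 28 measured, against 6.9% of all genes, so the count is not set apart from the background. Capitals mark the same homeodomain cores and, in addition, the core ACCACA that Runx proteins are known to bind, each on either strand. No matched letters of one motif overlapped those of another in these windows. The Mepe window, chr5:104325079-104325378 on the plus strand, holds a homeodomain core and 2 Runx cores. The Dkk1 window, chr19:30549447-30549746 on the minus strand, holds 1 Runx core. The Postn window, chr3:54359017-54359316 on the plus strand and 1 of 2 listed for that gene, holds 2 homeodomain cores, 1 of them after the start. The windows of a gene were ranked by their number of matches and the first was printed. The Postn cores therefore say nothing of its other window. All are RefSeq windows of GRCm38.p6 with 250 bases before and 50 after a start.
Mepe: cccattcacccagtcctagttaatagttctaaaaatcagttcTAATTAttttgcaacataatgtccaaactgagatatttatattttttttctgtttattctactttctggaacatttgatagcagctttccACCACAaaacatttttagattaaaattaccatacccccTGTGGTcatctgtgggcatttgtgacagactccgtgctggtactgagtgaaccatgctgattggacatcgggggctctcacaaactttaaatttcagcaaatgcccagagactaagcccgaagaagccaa
Dkk1: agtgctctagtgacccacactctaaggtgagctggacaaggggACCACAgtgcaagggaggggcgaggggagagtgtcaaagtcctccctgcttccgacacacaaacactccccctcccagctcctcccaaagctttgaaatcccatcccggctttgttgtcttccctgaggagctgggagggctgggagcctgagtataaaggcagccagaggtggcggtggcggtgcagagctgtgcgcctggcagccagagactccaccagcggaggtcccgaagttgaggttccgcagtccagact
Postn: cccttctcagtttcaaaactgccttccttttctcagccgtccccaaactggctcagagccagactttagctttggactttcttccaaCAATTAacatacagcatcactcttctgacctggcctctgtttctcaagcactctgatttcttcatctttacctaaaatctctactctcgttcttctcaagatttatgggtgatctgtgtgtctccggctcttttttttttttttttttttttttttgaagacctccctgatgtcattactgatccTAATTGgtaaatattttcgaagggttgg

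Of the 24 measured target genes with a promoter window, 3 held TAATTA, 6 held TAATTG and 7 held ACCACA in at least one window, while 5.29%, 8.0% and 16.8% of all 32851 windows did. Target genes with a core were found both among those of positive difference, such as Mepe, and among those of negative difference, such as Postn. A gene was counted if any of its windows held the core, whereas the background counts single windows. Genes with several windows have more places for a match, so the gene and window shares are not compared. These are counts of letters, and nothing is drawn from them about binding.

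In the fit of all arrays without other terms, the partners and stress-response targets of Atf4 were close to the background. Of 38 listed, 36 were measured and 0 passed at an adjusted p of 0.05 in limma. Before adjustment 2 were higher and 1 was lower in Ocn+ cells, against 3.48% and 1.83% of all genes, and the median difference was 0.07. Cebpb, a leucine zipper partner of Atf4 that is also strong in myeloid cells, read 12.30, 12.16 and 12.15 on the Ocn+ arrays, and 10.66, 10.96, 11.12 and 11.27 on the Osx+ arrays. The groups did not overlap, and the Ocn+ arrays lay close together, with a difference of 1.20 (SE 0.19) and a limma p of 0.000315 before and 0.556 after adjustment. With arrays weighted by their fit, Cebpb was the 1 gene of the 3 lists that limma called, where it called 0.783% of all genes, and a single call among the 105 measured list entries is near that share.

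Stc2, a secreted glycoprotein raised under endoplasmic reticulum stress, read 8.53, 8.69 and 7.80 on the Ocn+ arrays, and 10.48, 9.30, 9.42 and 9.17 on the Osx+ arrays, a difference of -1.26 (SE 0.38, limma adjusted p = 0.789). Phgdh, the first enzyme of serine synthesis, differed by 0.52 (SE 0.20) and Ddit4, an inhibitor of mTOR signalling, by 0.55 (SE 0.31), and the groups overlapped for both. Of the neutrophil, osteoclast and macrophage markers 0 passed in limma after adjustment, where 0% of all genes did. At an unadjusted limma p under 0.05, 8 of 13 neutrophil and 5 of 10 osteoclast markers were higher in Ocn+ cells, against 3.48% of all genes. At the same threshold 6 of 16 macrophage markers were lower, against 1.83%. The mean of 13 neutrophil markers was 10.34 to 10.67 on the Ocn+ arrays and 7.15 to 10.14 on the Osx+ arrays, that of 10 osteoclast markers 10.02 to 10.39 on the Ocn+ arrays and 8.06 to 9.87 on the Osx+ arrays, and that of 16 macrophage markers 9.38 to 10.25 on the Ocn+ arrays and 10.38 to 11.26 on the Osx+ arrays. The macrophage means thus ran opposite to Cebpb. Within the Osx+ group replicate 4 had the most Cebpb (11.27) but the lowest neutrophil (7.15) and osteoclast (8.06) means, and replicate 2 the highest neutrophil mean (10.14) with Cebpb at 10.96. The part of these cells in the Cebpb difference was not tested. In sorted bulk samples more cells of a type and more RNA per cell cannot be told apart.

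Marker signal of the labelled cells and of other types is given beside Dlx3, the factor of largest difference. On Osx+ replicate 4, where Dlx3 was near its level in Ocn+ cells, the endothelial mean was 7.02 and the neutrophil mean 7.15, both low, while the osteolineage mean of 13.00 was the highest of the 7 arrays. Osx+ replicate 1, the array with the least Dlx3, had the lowest osteolineage mean, 12.00. Ocn+ replicate 1 had a lower osteolineage mean (12.46) but more Dlx3 (10.91) than Osx+ replicates 2 and 3, where the means were 12.55 and 12.65 and Dlx3 stood at 10.00 and 10.25. The chondrocyte list (15 genes) stood at 9.91 to 11.42 on the Ocn+ arrays and 11.03 to 12.74 on the Osx+ arrays, and the lists of pericytes, B lineage, erythroid cells and adipocytes differed by 0.51, 0.03, -0.27 and 0.40. The part of the osteolineage signal in the Dlx3 values was not tested.

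**Figure D5:**
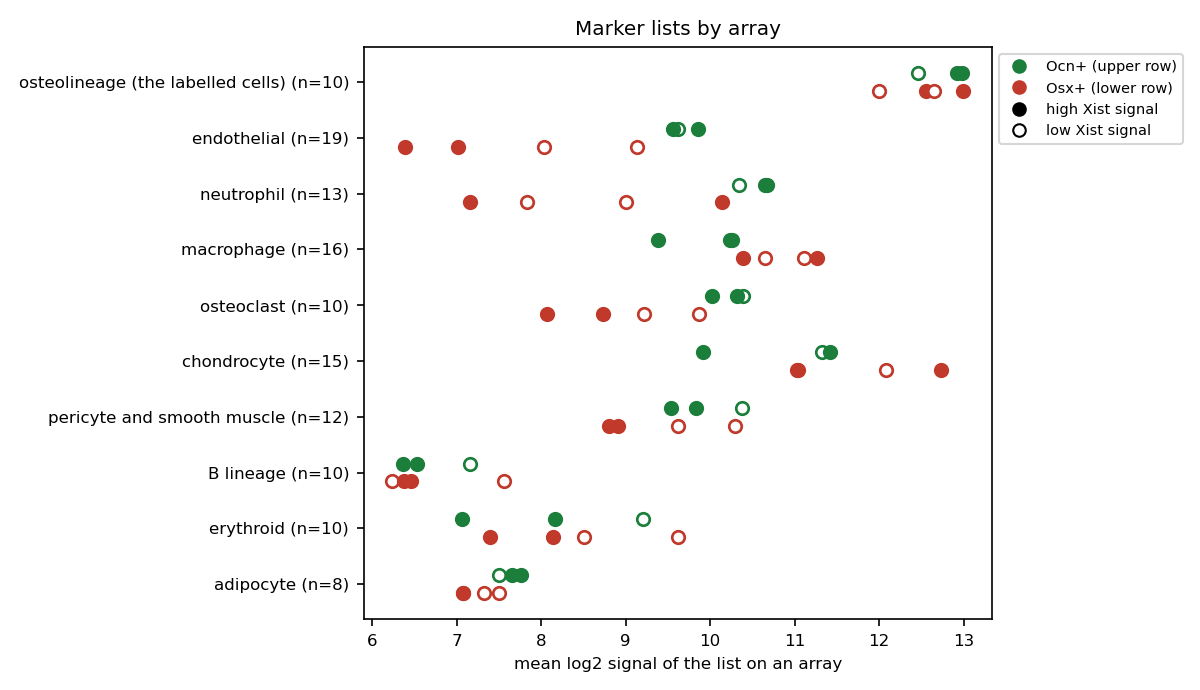
Mean log2 signal of each marker list on each array, with Ocn+ arrays in the upper and Osx+ arrays in the lower row of a list, filled points for high and open points for low Xist signal. Endothelial, neutrophil and osteoclast means are higher and macrophage means lower on all Ocn+ arrays than on any Osx+ array, while the osteolineage means overlap.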

How the data were processed

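Per the labels' protocols, Trizol RNA of sorted cells went through NuGEN Ovation V2 cDNA amplification and biotin labelling. The deposited log2 values, 1 for each probe set on each array, come from the authors' RMA processing (named in the submitters' processing notes, with no version given in the sources used here). RMA makes the distributions of arrays alike, so a change in total RNA is not seen, and the 3 and 4 arrays limit precision. Of 22690 probe sets 64 were controls, and the 20380 with 1 symbol in the platform annotation were used, 20351 of them updated by Entrez identifier. The brightest stood for each of 12393 genes.

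Ocn+ minus Osx+ was fitted in limma 3.58.1 (lmFit, eBayes) under R 4.3.3, 2-sided, adjusted over all genes by Benjamini-Hochberg, with a threshold of 0.05. Other probe sets were read from a fit of all 20380. Named genes are the factors, the 4 genes of smallest p per pathway list, and the 2 nearest in pattern to Sp7 and Dlx3. Col1a1, Alpl and Phex, from the osteolineage marker list, and Xist and Eif2s3y were chosen with their values known. Sensitivity was tested with the replicate block, single arrays left out, signal filters, median centring or quantile normalization, another prior, array weights, other probe set choices and the Xist class (log2 limit 8). Factors, lists and alternatives were chosen with earlier results of these data known. On simulated data of 12393 genes with 200 changed (20 runs) the fit recovered 19.7% of genes changed by 1 log2 unit, 78.0% by 2 and 97.9% by 4. It made 8.05 false calls on average. In the deposited data Mepe, at a difference of 2.61 (SE 1.08), had a limma adjusted p of 0.935. The simulated shares therefore do not tell which changes could be found in genes that vary as much as Mepe.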

Additional observations from a re-analysis of the deposited data

How the results depend on the processing

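In limma 0 genes passed at an adjusted p of 0.05, and 658 had an unadjusted p under 0.05. The count was 97 with array weights (0.24 for Osx+ replicate 1, the least, and 6.02 for Ocn+ replicate 2, the most) and 19 within the high-Xist arrays. Leaving out each array in turn gave 0 to 3 genes, with 3 without Osx+ replicate 2 and 3 without Osx+ replicate 3. Under the replicate block 0 genes passed. Deviations of same-numbered arrays correlated over genes at 0.63, 0.45 and -0.30, so the numbers were not taken as pairs. Sp7, Dlx3 and Dlx5 kept their direction in all 19 alternatives run for each, Dlx3 between 0.82 and 1.53, and 0 of the 7 factors passed in any setting run. The unadjusted Dlx3 p was over 0.05 without any single array but Osx+ replicate 4, with genes under the 25th percentile left out, with quantile normalization and within the high-Xist arrays. The Atf4 difference was -0.0029 under the replicate block, -0.039 with probe sets averaged, -0.088 with the most variable probe set, and -0.025 to 0.10 with single arrays left out (below 0 without Ocn+ replicate 1 and, at -0.0029, without Osx+ replicate 4). Leaving out arrays gave -0.055 to 0.51 for Dlx6 and -0.54 to 0.048 for Msx2, both turned without Osx+ replicate 1. Within the high-Xist arrays Msx2 was at 0.12 and Twist1 at 0.059. The cause of these turns was not tested. Dlx6 and Msx2 have no value under signal filters that leave them out.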
